A study of Homo sapiens with 12 samples.

Results

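The semaphorin, netrin and Slit guidance genes were described over 12 RNA-seq libraries of thyroid cancer cells with and without a disrupted Dicer1 allele. They were taken by gene name: the class 3 to 7 semaphorins, the plexins A to D, NRP1 and NRP2, the netrins NTN1, NTN3, NTN4 and NTN5, UNC5A to UNC5D, SLIT1 to SLIT3 and ROBO1 to ROBO4, leaving out names with a hyphen. The rule found 46 genes of the 58302 genes listed, and used no measured value. TPC1 is a papillary thyroid carcinoma cell line with the genotype labelled wt, and 3 libraries of it were measured. The clones D11, WB1 and TD5, with 3 libraries each, were grown from individually sorted TPC1 cells after CRISPR-Cas9 editing and are Dicer1 (+/-), so 1 allele was lost and 1 was kept. All lines were kept in the same culture conditions with no other treatment. Each clone is 1 monoclonal line, so the lost allele and a difference that the founding cell already carried cannot be told apart. The labels do not say whether the libraries of a line came from separate cultures, and p-values therefore measure only the spread between these libraries.

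Guidance cues were named for steering growing axons, and the same proteins act in many other tissues on cell migration, adhesion and vessel growth. Semaphorins are secreted or membrane-bound ligands of the plexin receptors, and the class 3 semaphorins mostly need a neuropilin, NRP1 or NRP2, as the part of the receptor that binds them. Netrins are laminin-related secreted proteins that attract through DCC and repel through the UNC5 receptors. Slits are large secreted proteins that repel through the Robo receptors. Dicer1 is the RNase III enzyme that cuts precursor hairpins into mature microRNAs, short RNAs that pair mainly through their seed, bases 2 to 8, with messenger RNAs.

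The guidance genes meet the Dicer1 pathway in their own sequence, since SLIT2 and SLIT3 each carry a copy of the hairpin of miR-218 in an intron. MIR218-1 lies at chr4:20528275-20528384 on the + strand, in intron 15 of the 37-exon SLIT2 transcript. MIR218-2 lies at chr5:168768146-168768255 on the - strand, in intron 14 of the 36-exon SLIT3 transcript. Both hairpins have the strand of their host gene and give the same mature miRNA of 21 bases. The mature sequence is printed below from RefSeq (GRCh38.p14) with its seed in capitals, together with that of let-7a, a widely expressed miRNA whose seed also matches guidance genes described here.
hsa-miR-218-5p: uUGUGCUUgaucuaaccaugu
hsa-let-7a-5p: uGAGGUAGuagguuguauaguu
The levels of these miRNAs were not measured, because the libraries hold messenger RNA.

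The letters that pair with these seeds were searched for in the 3′ UTRs of 1 transcript per gene (GENCODE 44, GRCh38), on the transcript's own strand. The miR-218 match, AAGCACA, stood in 10 of the 35 guidance genes that were tested, and in 1929 of 12074 tested genes with a 3′ UTR (16%). The let-7 match, CTACCTC, stood in 11 of the 35 and in 1357 of the 12074 (11.2%). A longer 3′ UTR has more places for a match, and length was not taken into account. Among the tested guidance genes it ran from 221 bases in ROBO3 to 7864 in SEMA5A, so these shares are not read as an enrichment. The windows below come from the genes described in the results, with the match in capitals, and were chosen to show which of the genes that were called, and the Robo receptor ROBO1, hold a match. A match is a run of letters in the reference, and binding was not measured.
SLIT2, miR-218 match, chr4:20619294-20619315, + strand: ctgaagacaagcagAAGCACAt
SLIT2, miR-218 match, chr4:20619403-20619424, + strand: cactaggacataccAAGCACAt
SLIT3, miR-218 match, chr5:168663651-168663672, - strand: ggcaagagtatgggAAGCACAc
ROBO1, miR-218 match, chr3:78597935-78597956, - strand: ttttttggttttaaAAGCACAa
SEMA5A, miR-218 match, chr5:9036690-9036711, - strand: agaaaatgaccaagAAGCACAt
SEMA5A, miR-218 match, chr5:9036205-9036226, - strand: tgcactttgaaacaAAGCACAg
PLXNA4, miR-218 match, chr7:132124498-132124519, - strand: tgatcttttgactcAAGCACAt
PLXNA4, let-7 match, chr7:132129452-132129473, - strand: gcatctaggagattCTACCTCc
PLXNA2, let-7 match, chr1:208023983-208024004, - strand: ctgtgcttgctgtcCTACCTCt
NTN1, let-7 match, chr17:9240217-9240238, + strand: atgacgagacgtagCTACCTCa
ROBO4, let-7 match, chr11:124884360-124884381, - strand: gaggcactgaggccCTACCTCa
Of the 8 genes called against TPC1, PLXNA4 holds both matches, SLIT2 the miR-218 match and NTN1 the let-7 match, and neither was found in the 3′ UTRs of SEMA3A, SEMA3E, SEMA4B, NRP1 or NRP2.

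Values are given as scaled reads, which are gene counts scaled by the authors to 20000000 aligned reads per library and rounded up. From the steps between the whole numbers, the libraries held an estimated 12700000 to 21020000 reads, so that 3 reads, the floor used here for counting error only, correspond to 2.85 to 4.72 scaled reads. Libraries of the same line correlated across tested genes with r of 0.993 at the lowest, and every library lay nearest to another library of its own line. The lines were close to each other too. For the library TD5 2, the highest r with another line, 0.9933, was above its lowest r within TD5, 0.9927. DICER1, the edited gene, held 1101 to 1360 scaled reads in TPC1, 977 to 1093 in D11, 815 to 939 in WB1 and 627 to 809 in TD5. Its log2 fold change against TPC1 was -0.19 for D11, with an adjusted p of 0.138, then -0.43 for WB1 (adjusted p = 0.00404) and -0.77 for TD5 (adjusted p = 9.02e-05). Every D11 library lay below every TPC1 library, but the difference did not pass the adjusted p. The fall in WB1 passed the adjusted p and was under 1.5-fold, so only TD5 met both thresholds. By sequencing and Western blot, the paper reports a frameshift deletion and reduced protein of this gene for each clone. Reads counted per gene do not separate the edited allele from the kept one, so these values do not decide whether D11 was edited. Among thyroid follicular markers, TSHR, SLC5A5 and NKX2-1 were at 0 in all libraries, while PAX8, a thyroid transcription factor, reached 7248 to 9879. Among leukocyte markers, CD3E was at 0 everywhere and PTPRC held 0 to 3. Fibroblast markers summed to 165 to 203 in D11, 187 to 219 in TD5, 235 to 355 in WB1 and 257 to 362 in TPC1. Over all libraries, COL1A1 held 48 to 97, PDGFRB 37 to 192 and LUM 0 to 212. COL1A2 and COL3A1 held 0 to 2, and DCN was at 0. The part of these markers in the differences between lines was not tested. Of 6 epithelial markers, KRT8 held 10280 to 16274 and CDH1 0 to 2. Of 5 neuron markers, STMN2 was at 0 and TUBB3 made up 1532 to 2692 of a sum of 1561 to 2711.

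A guidance gene was tested when it reached 1 per 1000000 in at least 3 libraries, and 35 of the 46 did so, among 16027 genes in all. These were 14 of 20 semaphorins, all 9 plexins, both neuropilins, 2 of 4 netrins, 3 of 4 UNC5 receptors, 2 of 3 Slits and 3 of 4 Robo receptors. The 11 others were SEMA3B, SEMA3D, SEMA3G, SEMA4A, SEMA5B, SEMA6D, NTN3, NTN5, SLIT1, ROBO2 and UNC5D. None of the 11 passed 8 scaled reads in any library, 4 of them were at or under the floor of 3 reads in every library, and UNC5D was at 0 in all 12.

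Levels between genes were compared per kilobase of exon, and the semaphorins and their receptors led. In TPC1, SEMA4B, a membrane-bound class 4 semaphorin, stood highest at 604 scaled reads per kb, next to PLXNB2, a receptor for class 4 semaphorins, at 596. SEMA3C, a secreted semaphorin, followed at 406, SEMA7A, the GPI-anchored semaphorin, at 395 and SEMA6B at 272. NRP1 stood at 214 and PLXNA1 at 210, so these neighbours were close to each other. Among the other cues, NTN1 stood at 91.2 per kb, SLIT2 at 13.6 and SLIT3 at 8.51. Of the receptors, UNC5B stood at 101, UNC5C at 86.0 and ROBO1 at 44.1. The lowest tested genes were SEMA3E at 4.34, SEMA6A at 3.09 and PLXNC1 at 1.59.

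**Figure D1:**
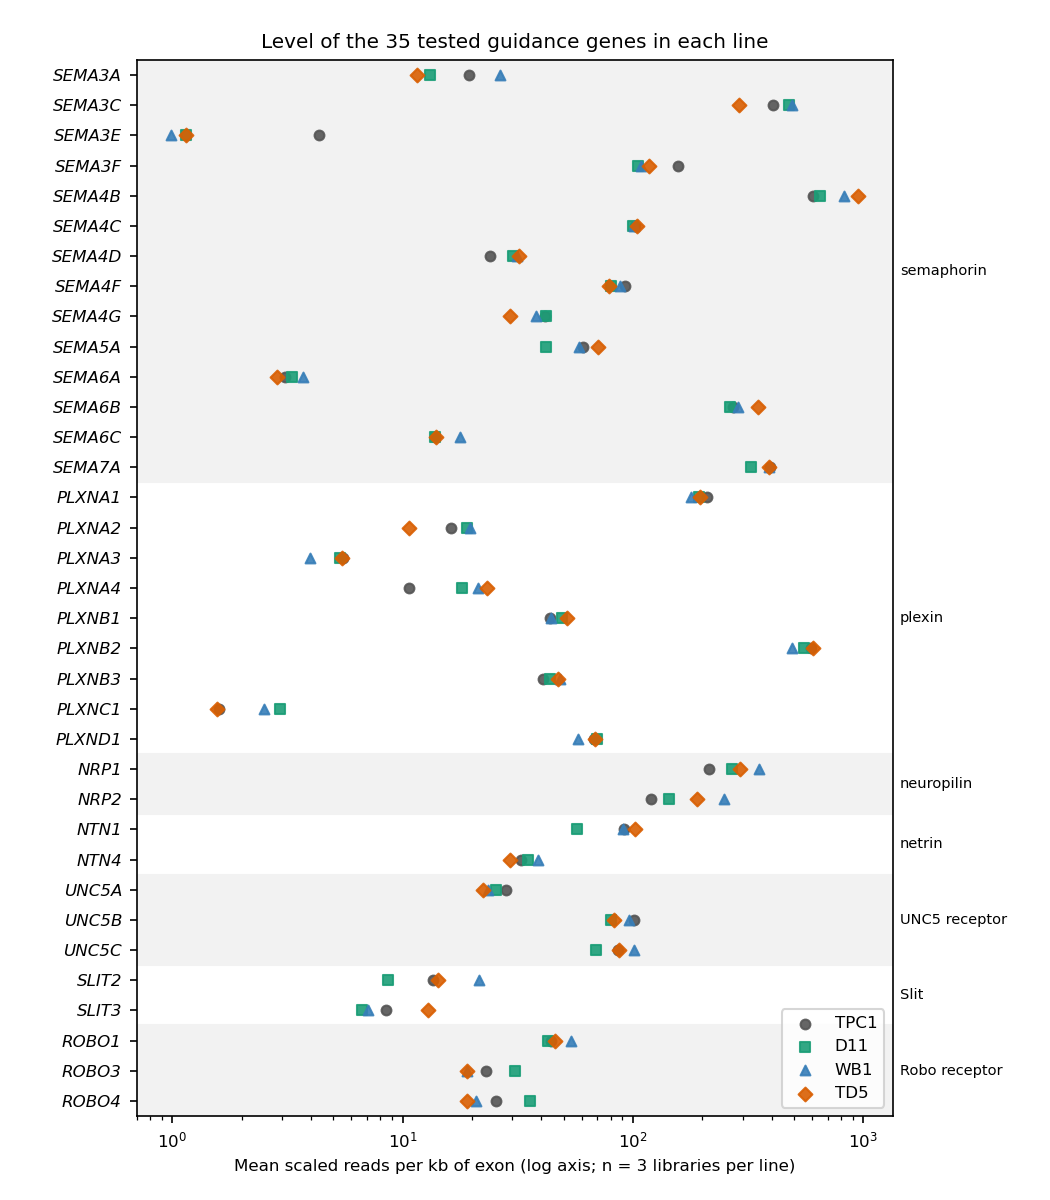
Level of each of the 35 tested guidance genes in scaled reads per kilobase of exon, on a log axis, with genes grouped by role and 1 point per cell line (mean of 3 libraries). Levels span from 604 for SEMA4B to 1.59 for PLXNC1 in TPC1, and for most genes the points of the 4 lines lie close together.

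A gene was called when limma's adjusted p was under 0.05 and the change was at least 1.5-fold. Of the 35 tested guidance genes, 14 were called in at least 1 of the 6 comparisons between lines, where 10.9% of all tested genes were. Against TPC1, 8 were called in at least 1 clone (8.68% of all tested genes), and between clones 10 were called at least once (6.16%), 6 of them in no comparison with TPC1. These counts include SEMA3E, which passed the filter on low values only through TPC1, where it is high, and so had to come out lower in the clones. The 3 comparisons with TPC1 share the TPC1 libraries and are therefore not independent of each other. The 21 genes never called stayed between -0.56 and 0.54 in log2 fold change.

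In each clone 1 of the lower calls below is SEMA3E, whose direction the filter fixed, and it is not read as a result. In D11 against TPC1, 3 guidance genes were called, 1 higher and 2 lower, where 4.84% of all tested genes were called, 2.89% higher and 1.95% lower. In WB1 it was 5, 4 higher and 1 lower, beside 4.99%, 3.39% and 1.59% of all genes. In TD5 it was 5, 3 higher and 2 lower, beside 2.6%, 1.12% and 1.48%. Leaving out the minimum fold, 16 guidance genes passed the adjusted p in D11 (33.3% of all genes), 13 in WB1 (30.9%) and 12 in TD5 (11.9%). The median log2 fold change of the 35 was -0.03, 0.01 and 0.00 in D11, WB1 and TD5, beside 0.05, 0.06 and 0.00 over all tested genes. The changes therefore went in both directions around medians near zero.

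PLXNA4 was the guidance gene called higher in all 3 clones, as 0.2% of all tested genes were. SEMA3E was the one on the lower side of both thresholds in all 3. The filter fixed that direction, so the share of all tested genes called lower in all 3, 0.374%, is no yardstick for it. All 9 clone libraries lay above all 3 TPC1 libraries for 3 guidance genes, NRP1, PLXNA4 and SEMA4D (5.17% of all tested genes), and below them for 3, SEMA3E, SEMA3F and UNC5A (6.51%).

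**Figure D2:**
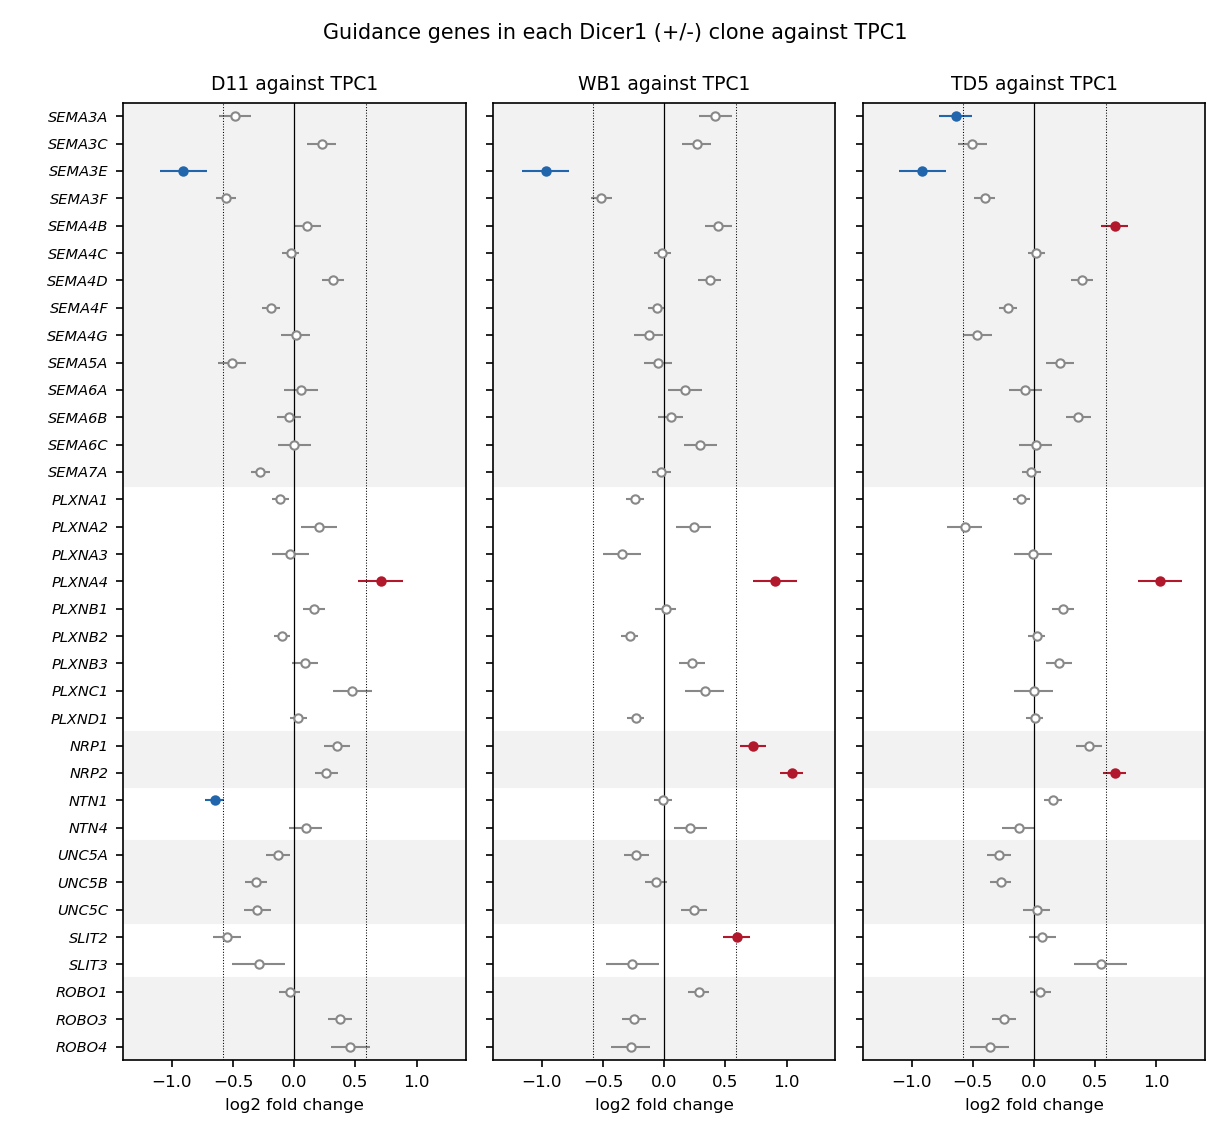
Log2 fold change of each tested guidance gene in D11, WB1 and TD5 against TPC1, with bars of 1 standard error, filled points for called genes and dotted lines at 1.5-fold. PLXNA4 lies right of the line in every clone (0.71, 0.90 and 1.03) and SEMA3E left of it (-0.91, -0.97 and -0.91), and the neuropilins are called higher in WB1 (0.73 and 1.04).

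Among the semaphorins, 5 of the 14 tested were called in some comparison: SEMA3A, SEMA3C, SEMA3E, SEMA4B and SEMA5A. SEMA3E (chr7:83363238-83649139, - strand) is a secreted semaphorin that binds PLXND1 without a neuropilin. It held 33, 23 and 54 scaled reads in the TPC1 libraries, 6, 14 and 9 in D11, 9, 11 and 5 in WB1, with 15, 10 and 4 in TD5. Every clone library was below every TPC1 library, and the clone means were 26.4%, 22.7% and 26.4% of the TPC1 mean. As a description, with no test, the log2 fold change was -0.91 for D11, -0.97 for WB1 and -0.91 for TD5, each with a standard error of 0.19. With the pseudocount of 1 per 1000000 these folds understate the change of a gene this low, and with a pseudocount of 4 they were -0.37, -0.39 and -0.37, under 1.5-fold. Without any 1 of TPC1 1, TPC1 2 or TPC1 3, SEMA3E was under the filter and was not fitted.

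SEMA3A (chr7:83955777-84492724, - strand) is the prototype repellent semaphorin, which binds NRP1, and lies 307 kb from SEMA3E on the same strand. Its values were 201, 200 and 139 in TPC1, 118, 114 and 133 in D11, 252, 257 and 225 in WB1, with 97, 99 and 126 in TD5. The D11 and TD5 libraries lay below those of TPC1 and the WB1 libraries above them. Only the fall in TD5 was called (log2 fold change -0.64, standard error 0.13, adjusted p = 0.00433, an order kept below), and D11 at -0.48 (adjusted p = 0.0114) and WB1 at 0.42 (adjusted p = 0.0245) were under 1.5-fold. The TD5 call was lost without TPC1 1 (-0.56) or TPC1 2 (-0.57), and D11 passed both thresholds without TPC1 3 (-0.64). Between clones, SEMA3A was higher in WB1 than in D11 (0.90, 0.13, adjusted p = 0.000226) and lower in TD5 than in WB1 (-1.06, 0.13, adjusted p = 7.91e-05).

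SEMA3C (chr7:80742538-80922359, - strand) is a secreted semaphorin that acts through both neuropilins. It held 2651, 2317 and 2455 scaled reads in TPC1, 2585, 3225 and 2892 in D11, 3106, 3356 and 2516 in WB1, with 1418, 1808 and 2037 in TD5. TD5 lay below all other lines with no overlap. The fall was called in TD5 against D11 (-0.73, 0.12, adjusted p = 0.000453) and against WB1 (-0.77, 0.12, adjusted p = 0.000627). Against TPC1 it was -0.50, under 1.5-fold, and reached -0.62 (adjusted p = 0.00239) without TD5 3. With a correction for GC content the difference from D11 was -0.51 and no longer called.

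SEMA4B (chr15:90160604-90229679, + strand), the guidance gene of the highest level per kb, held 3921, 4930 and 3827 scaled reads in TPC1, 4715, 4185 and 4682 in D11, 4863, 5559 and 6872 in WB1, with 6964, 5978 and 7006 in TD5. The TD5 libraries were above all TPC1 and D11 libraries, and overlapped those of WB1. SEMA4B rose in TD5 against TPC1 (0.66, 0.11, adjusted p = 0.000974), and its log2 fold change was 0.11 in D11 and 0.44 in WB1. SEMA5A (chr5:9035033-9546075, - strand), a membrane-bound semaphorin with thrombospondin repeats, held 700, 883 and 660 in TPC1, 460, 521 and 573 in D11, 645, 764 and 742 in WB1, with 996, 773 and 833 in TD5. D11 was the lowest line without overlap, and TD5 exceeded it (0.72, 0.11, adjusted p = 0.000395). Against TPC1, SEMA5A stood at -0.51 in D11, and at -0.59 (adjusted p = 0.00586), past both thresholds, without TPC1 3.

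Of the 9 semaphorins tested but not called, log2 fold changes ran from -0.56 to 0.41. SEMA3F, a secreted semaphorin that binds NRP2, held 709, 765 and 799 scaled reads in TPC1, 540, 467 and 518 in D11, 565, 478 and 532 in WB1, with 539, 607 and 558 in TD5. All clone libraries were lower, by log2 fold changes of -0.56 (adjusted p = 0.000226), -0.51 (adjusted p = 0.000407) and -0.40 (adjusted p = 0.00501), each under the 1.5-fold limit. In D11 it passed that limit without TPC1 1 (-0.60) or D11 1 (-0.60). SEMA4D, a ligand of PLXNB1, held 328, 379 and 316 in TPC1, 434, 424 and 427 in D11, 447, 435 and 455 in WB1, with 514, 420 and 429 in TD5. All clone libraries were higher, by 0.32 to 0.39, also under 1.5-fold. SEMA4C, SEMA4F, SEMA4G, SEMA6A, SEMA6B, SEMA6C and SEMA7A made up the rest.

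**Figure D3:**
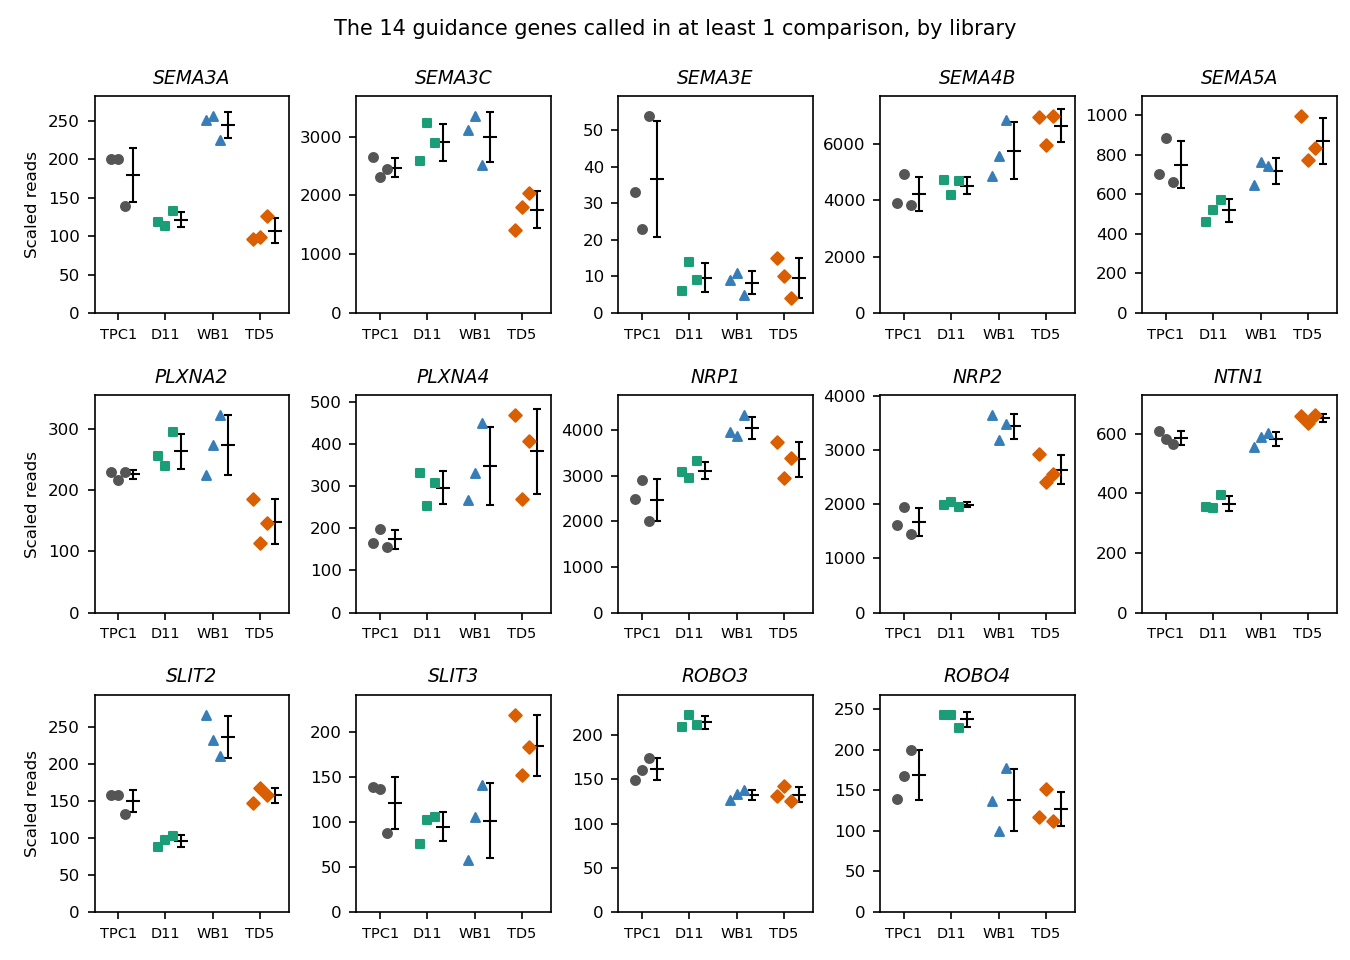
Scaled reads of the 14 called guidance genes in each of the 12 libraries, 1 panel per gene on its own axis from 0. Each point is 1 library, and black marks are the mean of each line with bars of 1 standard deviation. SEMA3E is low and PLXNA4 high in every clone, D11 is the lowest line for NTN1, SEMA5A and SLIT2, and TD5 the lowest for SEMA3C and PLXNA2.

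Among the plexins, the receptors that carry the GAP domain of the pathway, 2 of 9 were called. PLXNA4 (chr7:132123340-132648688, - strand), which pairs with neuropilins to receive class 3 semaphorins, held 166, 199 and 156 scaled reads in TPC1, 330, 252 and 307 in D11, 266, 330 and 449 in WB1, with 468, 270 and 408 in TD5. Every clone library was above every TPC1 library, and the clone means were 171%, 201% and 220% of the TPC1 mean. PLXNA4 rose by 0.71 in log2 fold change for D11 (standard error 0.18, adjusted p = 0.00793), by 0.90 for WB1 (0.18, adjusted p = 0.00177) and by 1.03 for TD5 (0.18, adjusted p = 0.00139). The clones did not separate from each other, with differences of 0.12 to 0.32. In D11 the call was lost with a pseudocount of 4 (0.57) or a correction for exon length (0.57), while in WB1 and TD5 it held under all 23 alternatives.

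PLXNA2 (chr1:208022242-208244384, - strand), another class A plexin, held 230, 217 and 230 in TPC1, 256, 239 and 295 in D11, 224, 273 and 322 in WB1, with 186, 113 and 146 in TD5. TD5 was below all other lines with no overlap. It was lower in TD5 than in D11 (-0.77, 0.14, adjusted p = 0.00143) and than in WB1 (-0.81, 0.14, adjusted p = 0.00185). Against TPC1 it stood at -0.57 (adjusted p = 0.0169), just under 1.5-fold, and was called without TPC1 2 (-0.59) or TD5 1 (-0.72). The 7 other plexins, from PLXNB2 at 3333 to 4650 scaled reads to PLXNC1 at 8 to 31, ranged from -0.48 to 0.47 over the 6 comparisons and were not called.

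The neuropilins, the ligand-binding part of the class 3 receptor, were both higher in WB1. NRP2 (chr2:205681990-205798133, + strand) held 1609, 1957 and 1448 scaled reads in TPC1, 1980, 2046 and 1949 in D11, 3646, 3195 and 3486 in WB1, with 2935, 2408 and 2568 in TD5. WB1 lay above all other lines and TD5 above TPC1 and D11, without overlap. NRP2 rose in WB1 (1.04, 0.09, adjusted p = 1.34e-06), to 206% of the TPC1 mean, and also rose in TD5 (0.66, 0.09, adjusted p = 0.000201), and was higher in WB1 than in D11 (0.78, 0.09, adjusted p = 2.18e-05). In D11 it stood at 0.26 against TPC1. The TD5 call was lost without TPC1 3 (0.56) or TD5 1 (0.58).

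NRP1 (chr10:33177492-33336262, - strand), which also binds VEGF, held 2499, 2915 and 2000 in TPC1, 3075, 2948 and 3326 in D11, 3973, 3868 and 4333 in WB1, with 3738, 2961 and 3386 in TD5. All clone libraries were above those of TPC1. The rise was called in WB1 (0.73, 0.11, adjusted p = 0.00016), beside 0.35 in D11 and 0.45 in TD5, and without TPC1 3, the lowest library, it was 0.58 and no longer called. Per library, the ratio of NRP2 to NRP1 was 0.644 to 0.724 in TPC1, 0.586 to 0.694 in D11, 0.805 to 0.918 in WB1 and 0.758 to 0.813 in TD5. The ratio was thus higher in each WB1 and TD5 library than in any library of the other lines.

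Of the netrins, NTN1 was the 1 called. NTN1 (chr17:9021510-9244000, + strand) held 610, 581 and 565 scaled reads in TPC1, 353, 351 and 393 in D11, 555, 589 and 603 in WB1, with 659, 637 and 662 in TD5. D11 stood apart from the other lines, at 62.5% of the TPC1 mean. NTN1 fell in D11 against TPC1 (-0.65, 0.07, adjusted p = 1.3e-05) and exceeded its D11 level in WB1 by 0.64 (0.07, adjusted p = 1.7e-05) and in TD5 by 0.80 (0.07, adjusted p = 1.22e-06). In WB1 and TD5 the change against TPC1 was -0.01 and 0.15. The fall in D11 was -0.53 with a correction for GC content and -0.58 with a pseudocount of 4, and not called in either. NTN4, which binds laminin, held 114 to 197 over all libraries and was not called.

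The UNC5 receptors held no call. UNC5B and UNC5C, the 2 of highest level, held 516 to 753 and 692 to 1197 scaled reads, and the 3 tested receptors ranged from -0.31 to 0.54. The highest of these was UNC5C in WB1 against D11 (0.54, adjusted p = 0.00379), which was called without D11 2 (0.59) or WB1 1 (0.61). UNC5A held 120, 126 and 120 in TPC1, 99, 116 and 114 in D11, 102, 99 and 103 in WB1, with 97, 92 and 100 in TD5. All clone libraries were lower than TPC1, with adjusted p of 0.312, 0.0939 and 0.0712. D11, in which NTN1 was lowest, held 549 to 553 scaled reads of UNC5B and 692 to 784 of UNC5C. TPC1 held 623 to 753 and 738 to 1044, so only UNC5C overlapped. The log2 fold changes in D11 against TPC1 were -0.31 (adjusted p = 0.0134) for UNC5B and -0.30 (adjusted p = 0.0437) for UNC5C. Both passed the adjusted p and were under 1.5-fold.

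Both tested Slits differed between lines, SLIT2 with its extremes in WB1 and D11 and SLIT3 with its highest values in TD5. SLIT2 (chr4:20251905-20620561, + strand), a host of miR-218, held 158, 159 and 133 in TPC1, 88, 97 and 103 in D11, 267, 233 and 211 in WB1, with 147, 168 and 158 in TD5. The order was WB1 highest, TPC1 and TD5 overlapping, and D11 lowest, with D11 at 64.0% and WB1 at 158% of the TPC1 mean. SLIT2 rose in WB1 against TPC1 (0.59, 0.11, adjusted p = 0.00107), and stood at -0.55 in D11 (adjusted p = 0.00188), under 1.5-fold. Set against D11, it was higher in WB1 by 1.14 (0.11, adjusted p = 2.38e-06) and in TD5 by 0.62 (0.11, adjusted p = 0.00103).

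The SLIT2 calls near the 1.5-fold limit depended on single libraries. The WB1 call was lost without TPC1 3 (0.52) or WB1 1 (0.51), and the TD5 call against D11 without D11 1 (0.56) or TD5 2 (0.57). In D11 against TPC1 the change passed both thresholds without TPC1 3 (-0.62) or D11 3 (-0.59), and in TD5 against WB1 without WB1 3 (-0.60). SLIT3 (chr5:168661740-169301139, - strand), the other host of miR-218, held 139, 137 and 88 in TPC1, 76, 102 and 106 in D11, 58, 105 and 141 in WB1, with 219, 152 and 183 in TD5. TD5 lay above every library of the other lines, and the spread within WB1 was wide. SLIT3 was higher in TD5 than in D11 (0.83, 0.22, adjusted p = 0.0108) and than in WB1 (0.80, 0.22, adjusted p = 0.0214). The difference from D11 was lost without TD5 1 (0.71, adjusted p = 0.0501). The difference from WB1 was lost without WB1 1 (0.52, adjusted p = 0.111), WB1 2 (0.86, adjusted p = 0.0516) or TD5 1 (0.69, adjusted p = 0.0768).

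Of the Robo receptors, ROBO3 and ROBO4 shared a pattern and ROBO1 did not. ROBO3, a divergent Robo known from axon crossing of the midline, and ROBO4, known from endothelium, are neighbours on chromosome 11 with 2219 bases between their ends (ROBO3 chr11:124865432-124881471, + strand, and ROBO4 chr11:124883691-124898500, - strand). ROBO3 held 149, 161 and 174 scaled reads in TPC1, 209, 223 and 211 in D11, 127, 133 and 138 in WB1, with 131, 142 and 125 in TD5. ROBO4 held 139, 168 and 200 in TPC1, 243, 243 and 227 in D11, 137, 100 and 177 in WB1, with 117, 151 and 112 in TD5. D11 was the highest line for each, above all other libraries, and WB1 and TD5 overlapped. Set against D11, ROBO3 was lower in both other clones (WB1 -0.62, 0.10, adjusted p = 0.000428, and TD5 -0.62, 0.10, adjusted p = 0.000332), and ROBO4 likewise (-0.73, 0.16, adjusted p = 0.00669, and -0.82, 0.16, adjusted p = 0.00176). Neither was called against TPC1, where D11 stood at 0.37 and 0.46. The ROBO4 difference in WB1 was lost without WB1 2 (-0.55), and the ROBO3 difference in TD5 without TD5 3 (-0.58). Beside ROBO4, the 5 endothelial markers summed to 31 to 34 scaled reads in TPC1, 19 to 22 in D11, 16 to 27 in WB1 and 18 to 27 in TD5, with TEK at 10 to 28, PECAM1 at up to 7, VWF at up to 6, and CDH5 and EMCN at 0. A part of these markers in the ROBO4 difference was not tested. ROBO1, the Robo receptor of the highest level per kb, held 444 to 532 in TPC1, 454 to 501 in D11, 582 to 617 in WB1 and 458 to 538 in TD5, and was not called, with 0.28 in WB1 against TPC1 (adjusted p = 0.0194).

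Set directly against each other, the clones differed in 6 guidance genes for WB1 against D11 (4 higher, 2 lower), where 2.85% of all tested genes were called, 1.97% higher and 0.88% lower. For TD5 against D11 it was 8 (4 higher, 4 lower), beside 3.99%, 1.67% and 2.32%. For TD5 against WB1 it was 4 (1 higher, 3 lower), beside 2.33%, 0.611% and 1.72%. Leaving out the minimum fold, 11, 15 and 9 guidance genes passed the adjusted p, beside 8.07%, 23.2% and 13.6% of all genes. The 6 genes called between clones and in no comparison with TPC1 were PLXNA2, ROBO3, ROBO4, SEMA3C, SEMA5A and SLIT3. The median absolute log2 fold change of the 35 was 0.18, 0.16 and 0.23, and over all tested genes 0.098, 0.15 and 0.14.

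**Figure D4:**
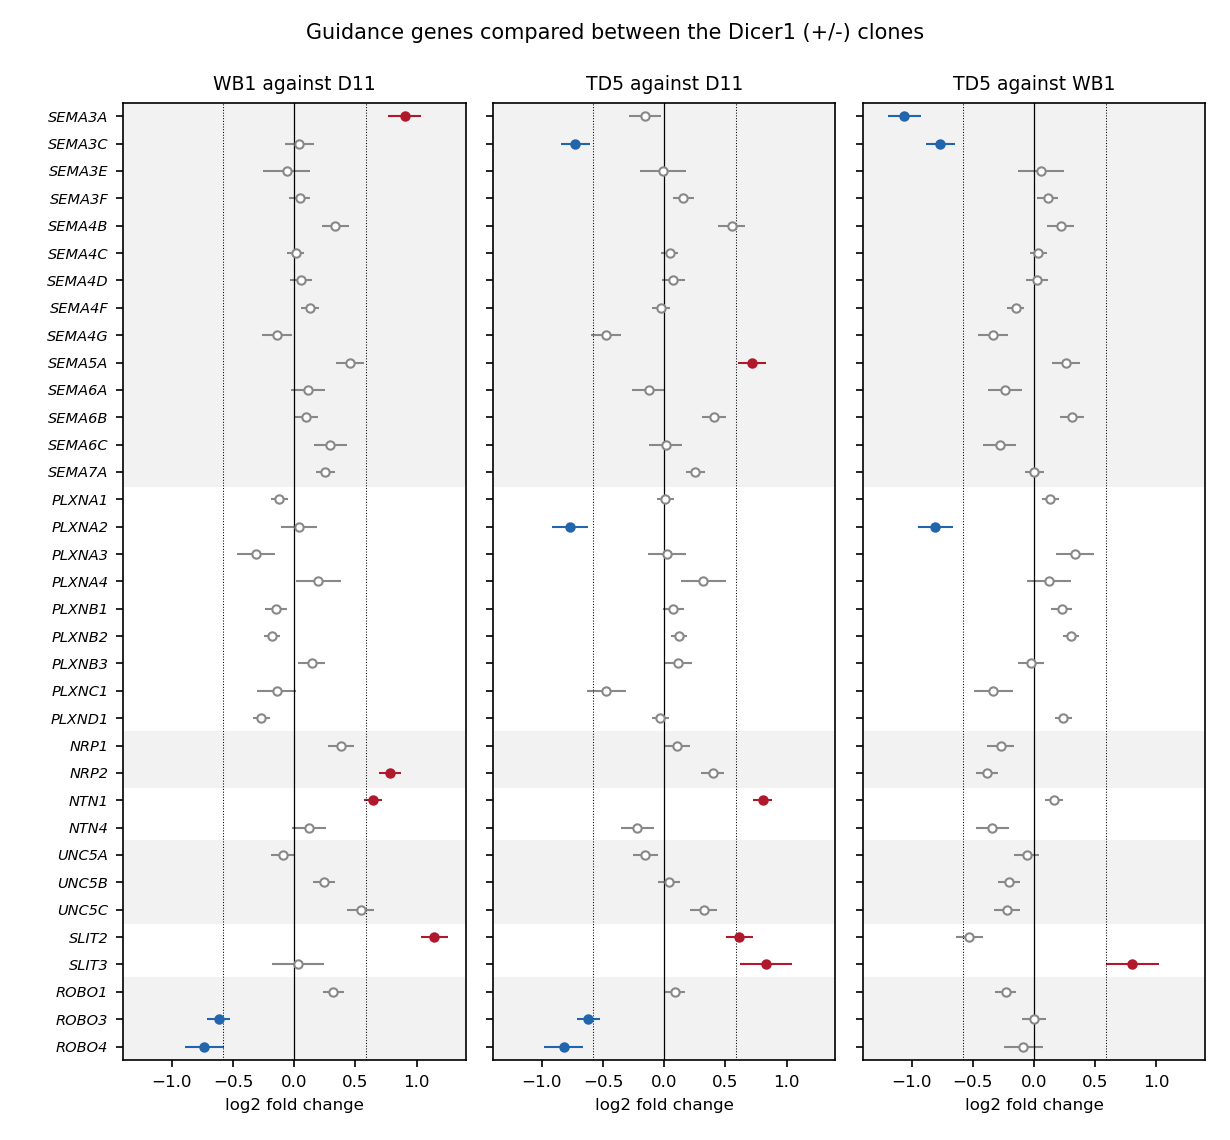
Log2 fold change of each tested guidance gene in WB1 against D11, TD5 against D11 and TD5 against WB1, drawn as in the plot of clones against TPC1. SLIT2 and SEMA3A lie farthest right in WB1 against D11 (1.14 and 0.90), and SEMA3A farthest left in TD5 against WB1 (-1.06).

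Other genes of these pathways were counted from a wider list. Of 84 listed co-receptors, netrin receptors, plexin effectors and Slit-Robo partners, 66 were tested, and against TPC1 the calls were 1 higher and 2 lower for D11, 1 higher and 4 lower for WB1, and 3 lower with 0 higher for TD5. With 3, 5 and 3 calls among 66 genes, beside 4.84%, 4.99% and 2.6% of all tested genes, the counts are not read as a result about the list, and the 3 genes below are given as single genes. SDC2, a heparan sulfate proteoglycan of the cell surface, held 1440, 1341 and 1344 scaled reads in TPC1, 593, 622 and 622 in D11, 809, 887 and 843 in WB1, with 1185, 1304 and 1277 in TD5. All clone libraries were below TPC1, and the fall was called in D11 (-1.14, 0.07, adjusted p = 2.72e-09) and WB1 (-0.69, 0.07, adjusted p = 3.42e-06), with -0.13 in TD5. FYN, a Src-family kinase downstream of plexins, held 289, 292 and 287 in TPC1, 261, 227 and 267 in D11, 149, 188 and 206 in WB1, with 152, 141 and 161 in TD5. It fell in WB1 (-0.63, 0.11, adjusted p = 0.000627) and TD5 (-0.85, 0.11, adjusted p = 0.000101). CRMP1, a collapsin response mediator of semaphorin signalling, held 512, 602 and 414 in TPC1, 803, 765 and 865 in D11, 775, 885 and 894 in WB1, with 531, 419 and 529 in TD5. It rose in D11 (0.66, 0.12, adjusted p = 0.000687) and WB1 (0.73, 0.12, adjusted p = 0.000302), and TD5 overlapped TPC1 (-0.04). LRRC4 was called as often against TPC1, lower in WB1 (-0.66, 0.17, adjusted p = 0.00701) and TD5 (-0.67, 0.17, adjusted p = 0.0138). It is not among the 3 because its largest fold change was smaller.

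Several of the called genes have an overlapping gene on the opposite strand in GENCODE 44. These are NRP1, NRP2, NTN1, PLXNA2, PLXNA4, ROBO4, SEMA3E, SEMA5A and SLIT3. The libraries were stranded, but the strand setting of the counting is not given in the sources used here, so reads of the opposite partner are not told apart with certainty.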

How the data were processed

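RNA was measured in 3 libraries each of TPC1 and the Dicer1 (+/-) clones D11, WB1 and TD5, grouped by the labels' titles and genotypes. The authors made stranded mRNA libraries, sequenced paired-end reads, aligned them with STAR 2.5.3a to GRCh38, counted genes of Ensembl release 90 with HTSeq 0.9.1 and scaled the counts to 20000000 aligned reads. The deposited values are these scaled counts, rounded up, and are handled here as a score, each library summing to 20009833 to 20014191.

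The study's methods name a test for raw counts, which scaled values do not allow, so the test set for scaled values was used. limma 3.58.1 (R 4.3.3) fitted log2(value per 1000000 + 1), with a variance trend, 1 mean per line and all 12 libraries, over genes at 1 per 1000000 or more in at least 3 libraries. Benjamini-Hochberg adjustment ran over all 16027 tested genes, and a call needed adjusted p under 0.05 and 1.5-fold. Fold changes are on this log2 scale, which understates low genes. The fit was tested on simulated data, in which 95.9%, 93.9% and 100% of genes changed by 2, 3 and 4-fold in D11 were called. Recovery at 1.5-fold, the limit for a call, was not recorded, so the simulation does not bear on calls near it. GENCODE 44 matched 57532 of the 58302 identifiers and gave positions and exon lengths on GRCh38. Of the 46 guidance genes, those called in any comparison are given in full, the others by role. From the 84 other pathway genes, the 3 called most often against TPC1 are named, with ties settled by the largest absolute log2 fold change. Single genes named besides these were chosen after their values were seen. The members, lists and tests were chosen with earlier results of these data known. Same-numbered libraries deviated together, with r over 0.1 in every pair, in TD5 against D11 alone (0.11, 0.17 and 0.35), and the labels do not say that a number marks a shared culture. Other alternatives were another scaling, pseudocounts, filters, fold limits, precision weights, a replicate block, leaving out each library, and corrections for GC content and exon length, the last 2 chosen after seeing the data.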

Additional observations from a re-analysis of the deposited data

Results flagged for a closer look

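The effects against TPC1 differed between clones, by the test of the difference itself (limma, all genes adjusted together), for 10 guidance genes, giving 18 called differences between clones. In WB1 against D11 the log2 differences were 1.14 for SLIT2, 0.90 for SEMA3A, 0.78 for NRP2, 0.64 for NTN1, -0.62 for ROBO3 and -0.73 for ROBO4. In TD5 against D11 they were 0.83 for SLIT3, 0.80 for NTN1, 0.72 for SEMA5A, 0.62 for SLIT2, -0.62 for ROBO3, -0.73 for SEMA3C, -0.77 for PLXNA2 and -0.82 for ROBO4. In TD5 against WB1 they were 0.80 for SLIT3, -0.77 for SEMA3C, -0.81 for PLXNA2 and -1.06 for SEMA3A.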

How the results depend on the processing

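Of 31 calls of a guidance gene in a comparison, 14 held under all 23 alternatives and 0 changed direction. The alternative without a minimum fold only loosens the rule, so no call could be lost under it. The 31 also include the calls of SEMA3E, whose direction the filter fixed. Counts moved by over 1.5 times in these cases, and the cause was not tested beyond what each alternative changes. In D11 against TPC1 the 3 calls became 5 with median-of-ratios scaling, 5 with a pseudocount of 0.1, 0 with a pseudocount of 4, 5 with precision weights (voom), 5 with the GC correction and 6 with the exon length correction. The genes gained there were SLIT2, SEMA3F, SEMA3A, SEMA5A and PLXNC1, in different settings. Over all tested genes, the calls in D11 went from 463 higher and 312 lower to 775 and 413 with the pseudocount of 0.1. They went to 153 and 142 with the pseudocount of 4, and to 775 and 411 with voom. With median-of-ratios scaling they were 350 and 355, with the GC correction 264 and 319, and with the exon length correction 307 and 361. With a pseudocount of 4 the count of guidance genes was 3 in WB1 against TPC1 (from 5), 3 in TD5 against TPC1 (from 5) and 3 in WB1 against D11 (from 6). Over all tested genes it went from 544 higher and 255 lower to 213 and 126 in WB1 against TPC1. In TD5 against TPC1 it went from 179 and 238 to 80 and 100, and in WB1 against D11 from 315 and 141 to 142 and 71. The calls that this pseudocount ended were those of SEMA3E in every clone, NTN1 and PLXNA4 in D11, SLIT2 in WB1 and SEMA3A in TD5 against TPC1, and between clones NTN1, ROBO3 and ROBO4 in WB1 against D11, SLIT2 and ROBO3 in TD5 against D11 and SLIT3 in TD5 against WB1. SLIT2 in WB1 against TPC1 was also lost with median-of-ratios scaling (0.55), the GC correction (0.53) and the exon length correction (0.48), ROBO3 in TD5 against D11 with median-of-ratios scaling (-0.58) and the exon length correction (-0.55), and SLIT3 in TD5 against WB1 with no filter on low values (adjusted p = 0.0628). Without a minimum fold it was 16, 13 and 12 in D11, WB1 and TD5 against TPC1, and 11, 15 and 9 in WB1 against D11, TD5 against D11 and TD5 against WB1. Leaving out 1 library gave 2 to 5 in D11, 2 to 5 in WB1 and 3 to 6 in TD5 against TPC1, and 5 to 7, 7 to 9 and 3 to 5 between the clones in the same order. Without TPC1 3, the count was 5 in D11, 2 in WB1 and 3 in TD5. With the replicate number as a block, the replicate block counts were 3, 5, 5, 6, 8 and 4, the same as without it. The 11 untested genes were under the filter on low values, so the fit behind the calls did not test them for a difference. Whether depth or absence of the transcript kept them low was not tested.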
